A study of Mus musculus with 18 samples.

Results

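Knockout hippocampus was set against wild-type hippocampus on 6 of the 18 arrays of the series, taken by their labelled region and genotype, with 3 arrays per genotype. Every mouse was a male of the 129SV strain kept without an added stress. The wild-type mice carried Nrf2 and the knockout mice lacked it. The 12 other arrays measured cortex and brainstem of the same genotypes and are used here to estimate the spread and to compare the effect between regions. The labels number the mice of each genotype but give neither their age, nor the part of the gene that was removed, nor the cells meant to carry the loss, so all cells of the region are read together. Nor do they say whether the same number in different regions is the same mouse, and the fit over 18 arrays takes them as independent. Total RNA was labelled with Cy3 and hybridised to Agilent 1-colour mouse arrays. A level below is the log2 processed signal of a probe minus the 75th percentile of its array, and a difference is the mean knockout level minus the mean wild-type level, given with its standard error.

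Nrf2, encoded by Nfe2l2, is a transcription factor that turns on genes for glutathione use, for NADPH supply and for the breakdown of reactive compounds. In unstressed cells the adaptor Keap1 holds Nrf2 and passes it to a ubiquitin ligase, so that most of it is degraded. Oxidants and electrophiles modify Keap1, Nrf2 then accumulates, pairs with a small Maf protein and binds antioxidant response elements. In brain the pathway is known to be most active in astrocytes, which supply neurons with the building blocks of glutathione.

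The 6 hippocampal arrays had 70.9 to 75.1% of their spots well above background and no saturated spot, and 22675 genes were tested. Of these, 21207 were above background on all 6 arrays. The labelled tissue was borne out by its markers. The mean level of 15 dentate gyrus granule cell markers lay between -0.22 and 0.40 on the hippocampal arrays, against -1.58 to -1.34 in cortex and -1.73 to -1.65 in brainstem. The lists for CA1, CA2 and CA3, the fields of pyramidal neurons, were also higher on every hippocampal array than on any other array. Genes of the choroid plexus, a tissue in the ventricle beside the hippocampus, set 3 arrays apart from the other 3. The mean level of 16 such genes was 1.12, 0.63 and -2.91 in wild type 1, 2 and 3, and 0.63, -2.69 and -2.37 in knockout 1, 2 and 3. Wild type 1 and 2 and knockout 1 were thus high and the remaining arrays low, a split that crosses the genotypes.

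Between the genotypes, 4 of 22675 genes passed an adjusted p of 0.05 in limma's test, which is 0.0176% of them. A single gene rose, Rbm45 (0.00441% of all), and 3 fell, Nfe2l2, Gstm1 and Gstm3 (0.0132%). With no adjustment, 307 genes (1.35%) had a p under 0.05, 170 of them higher (0.75%) and 137 lower (0.604%) in knockout. Those 1.35% are fewer than a cutoff of 0.05 passes when no gene differs, but the share depended on the model. With the mouse number as a block within each region, 838 of 22675 genes had a p under 0.05 in limma's test. With that block in the 6 hippocampal arrays alone, 1316 did. The split into higher and lower was not stable. With normexp, 148 were higher and 58 lower, while it turned to 170 higher and 323 lower without wild type 3, to 196 and 253 without knockout 1, to 161 and 216 without knockout 2, and to 153 and 179 in slide 3 alone, which held wild type 2 and 3 and knockout 2 and 3. The 3 knockout values lay above the 3 wild-type values in 5.23% of genes and below them in 2.67%, together 7.91%, and 56.9% of all differences were above 0, with a median of 0.022.

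**Figure D1:**
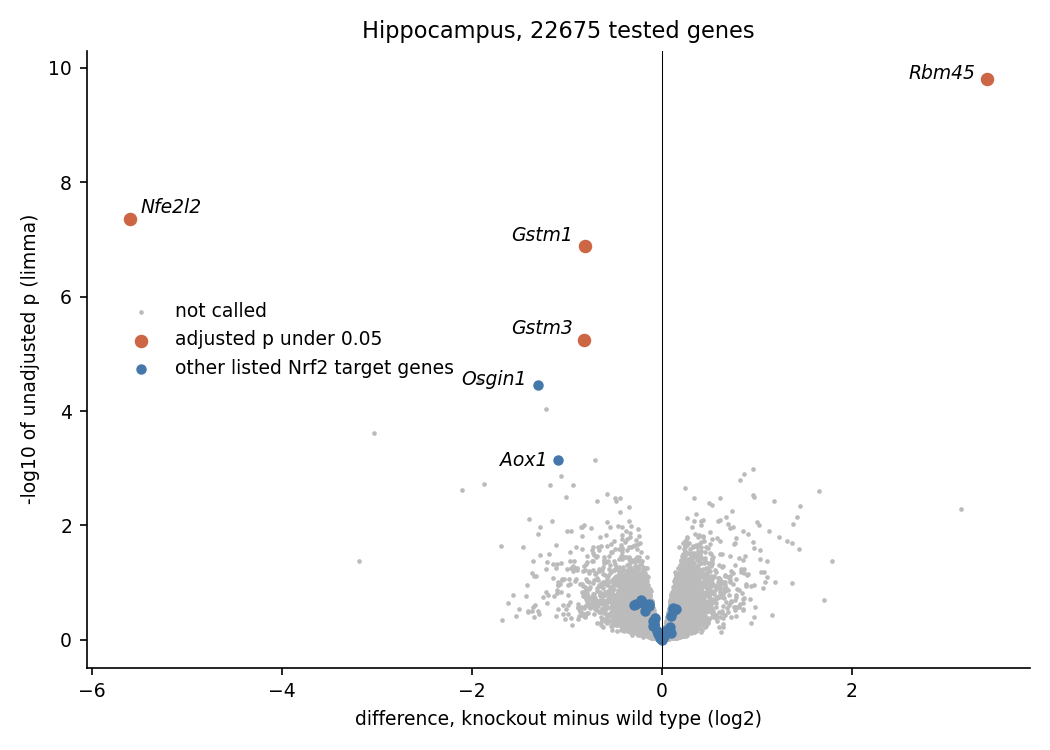
Difference between knockout and wild-type hippocampus (log2, horizontal axis) against -log10 of the unadjusted p from limma (vertical axis) for 22675 genes, 3 arrays per genotype. The 4 genes with an adjusted p under 0.05 are Rbm45 on the right and Nfe2l2, Gstm1 and Gstm3 on the left; the other listed Nrf2 target genes apart from Osgin1 and Aox1 lie near 0.

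Nfe2l2 itself, the gene removed in these mice, was read in every array to check the labels. Its level was 0.93, 1.07 and 0.83 in wild type 1, 2 and 3, and -3.63, -5.86 and -4.50 in knockout 1, 2 and 3. All knockout arrays lay far below all wild-type arrays, by -5.60 ± 0.54 (48.6-fold, adjusted p = 0.00049). With normexp, whose offset shrinks differences at low signal, it was -3.89. The knockout signal was still called above background on all 3 arrays and varied more between mice (SD 1.12) than the wild-type signal (SD 0.12). The sources used here do not say whether its probes lie in the removed part of the gene. With the 6 hippocampal arrays alone the adjusted p was 0.297.

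The proteins that work with Nrf2 gave no further call. Of 13 measured genes of this system, 1 was called, Nfe2l2, against 0.0176% of all genes. Keap1, the adaptor that marks Nrf2 for degradation, was at 2.96, 2.79 and 2.82 in wild type and 3.003, 2.90 and 2.80 in knockout, a difference of 0.048 ± 0.18. Nfe2l1, a related factor that drives proteasome genes, was at 4.66, 4.62 and 4.74 against 4.82, 4.75 and 4.76. Its groups did not overlap, yet the difference of 0.10 ± 0.13 did not pass the test. Btrc, a subunit of a second ubiquitin ligase that acts on Nrf2, was lower on every knockout array (-0.28 ± 0.19), also short of the threshold. The partner and competitor genes Mafg, Mafk, Maff and Bach1 had overlapping groups.

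Gstm1 and Gstm3 encode glutathione transferases of the mu class, which join glutathione to electrophiles. Gstm1 was at 6.33, 6.28 and 6.36 in wild type and at 5.51, 5.46 and 5.58 in knockout. Each knockout value was lower than each wild-type value, and the gene fell by -0.81 ± 0.085 (1.75-fold, adjusted p = 0.001). Its second probe gave -0.97 ± 0.13. Gstm3 was at 4.69, 4.75 and 4.74 in wild type and at 3.73, 3.98 and 4.04 in knockout, again with no overlap, a fall of -0.81 ± 0.12 (1.76-fold, adjusted p = 0.0326). Genes of this class are close in sequence, and the sources used here do not say how well the probes tell them apart.

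These 2 calls were less stable than those of Rbm45 and Nfe2l2. With the mouse number as a replicate block within each region, 2 genes were called in place of 4, since Gstm1 had an adjusted p of 0.0653 and Gstm3 of 0.0737. Gstm3 also lost its call when any 1 hippocampal array was left out (adjusted p = 0.0685 to 0.159), with median scaling (0.217) and with no filter on dim probes (0.0891). Gstm1 kept its call in each of those settings. With the 6 hippocampal arrays alone neither was called (adjusted p = 0.297 and 0.816), nor with the 4 hippocampal arrays of slide 3 and the spread of all regions (0.0695 and 0.506). The sizes moved little: in the leave-one-out fits the difference ranged from -0.84 to -0.78 for Gstm1 and from -0.87 to -0.72 for Gstm3.

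**Figure D2:**
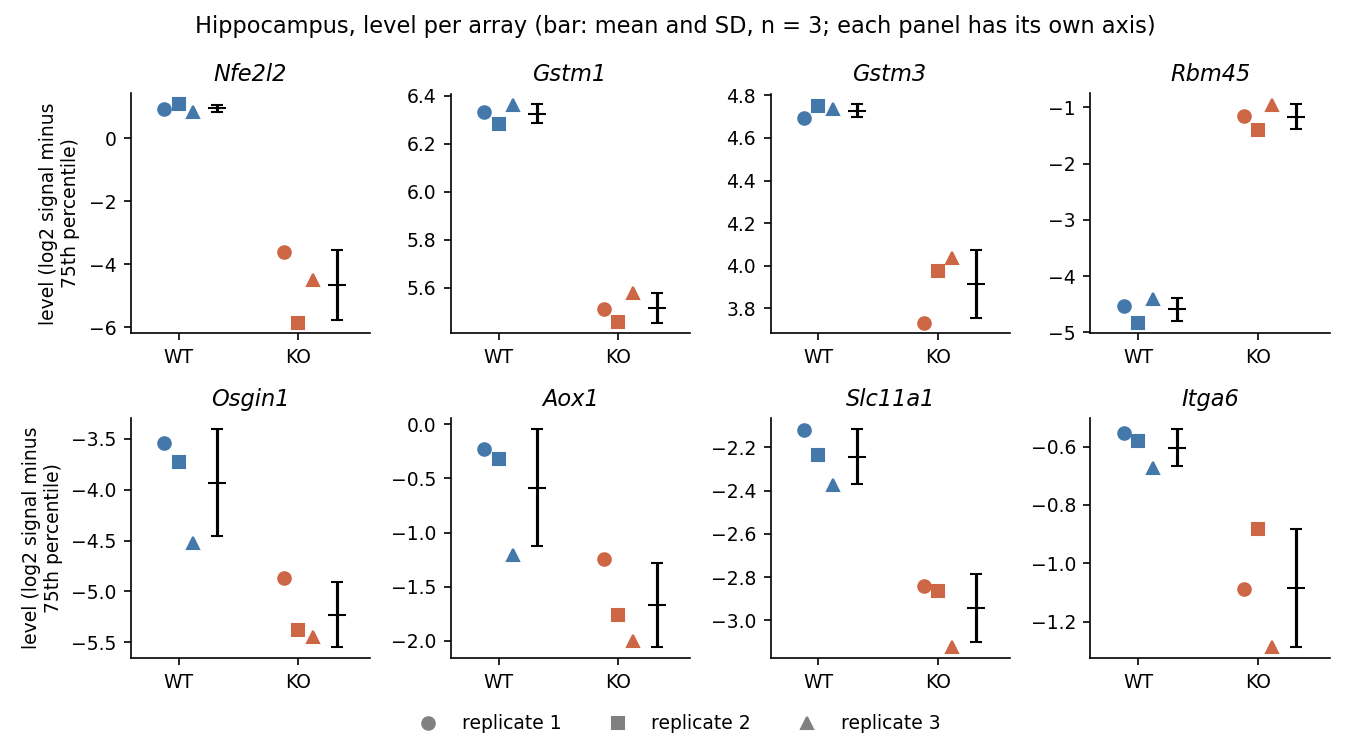
Level of 8 genes on each hippocampal array (log2 signal minus the 75th percentile, vertical axis) in wild type (WT) and knockout (KO), with the mean and SD of 3 arrays; marker shapes give the replicate number and each panel has its own axis. Groups do not overlap in any panel; Nfe2l2, Gstm1 and Gstm3 fell and Rbm45 rose, while Osgin1, Aox1, Slc11a1 and Itga6 were lower on every knockout array without passing the test.

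Among the 22 glutathione transferase genes measured, Gstm1 and Gstm3 were the called members, both lower, against 0.0132% of all genes called lower. The median of the family was 0.057, and 14 of the 22 were above 0. Other mu-class genes differed less: Gstm2 was at -1.20, -1.41 and -1.95 in wild type and -1.52, -1.75 and -2.11 in knockout (-0.27 ± 0.17), and Gstm7 at -0.24 ± 0.17 (-0.16 with normexp). Gstm5, also of the mu class, was slightly higher in every knockout array (0.11 ± 0.085). Gstt1, of the theta class, was at -3.07, -3.12 and -3.23 in wild type and -2.76, -2.73 and -2.95 in knockout, a difference of 0.33 ± 0.14 that did not pass the test. Gsto2, of the omega class, was at 0.41 ± 0.21 with overlapping groups. Gsta1, of the alpha class, was at -0.48 ± 0.43 and Ltc4s, which makes leukotriene C4, at -0.49 ± 0.28, both with overlapping groups. Gstp1, of the pi class, had overlapping groups as well (0.12 ± 0.10).

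The wider set of Nrf2 target genes gave the same 2 calls. Of 37 measured targets, 2 were called lower and none higher, 22 were below 0, and the median difference was -0.026. In 4 of them, Osgin1, Aox1, Gstm3 and Gstm1, the knockout values all lay under the wild-type values. This is 4 of 37, where 2.67% of all genes did so. The list was drawn up with results of these data known and is not independent evidence of its direction.

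Osgin1, an oxidative stress-induced growth inhibitor, was at -3.54, -3.72 and -4.53 in wild type and at -4.86, -5.38 and -5.45 in knockout. Every knockout array was lower, with wild type 3 the nearest to them. Within each genotype the arrays high in choroid plexus genes (wild type 1 and 2, knockout 1) had the higher levels, and the part of that tissue in the difference was not tested. The difference was -1.33 within slide 2, where both arrays were high in those genes, and -1.29 within slide 3. The difference of -1.30 ± 0.22 had an adjusted p of 0.134 and was called under 4 alternatives: quantile normalization (0.0376), the slide as a block (0.0264), a replicate block over regions (0.00789) and without wild type 3 (0.00409). Its second probe, above background on 1 of 3 knockout arrays, was at -0.64 ± 0.26. With normexp the difference was -0.48. Aox1, an aldehyde oxidase, was at -0.23, -0.32 and -1.21 in wild type and at -1.25, -1.77 and -2.01 in knockout. Its groups were separated by a narrow gap between wild type 3 and knockout 1, and the difference of -1.09 ± 0.25 did not pass the test (adjusted p = 1). Aox1 followed the choroid plexus levels in the same way, which was not tested either. Within slide 2, which held wild type 1 and knockout 1, both high in choroid plexus genes, Aox1 differed by -1.02, and within slide 3, with the other 4 hippocampal arrays, by -1.12.

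The targets most often used as readouts of Nrf2 activity had overlapping groups. Nqo1, which reduces quinones, was at -1.16, -1.43 and -1.60 in wild type and at -1.32, -1.98 and -1.54 in knockout (-0.22 ± 0.16). Hmox1, haem oxygenase, was at -0.38, -0.59 and -0.58 against -0.46, -0.77 and -0.45 (-0.044 ± 0.11). Gclc and Gclm, the subunits of the enzyme that starts glutathione synthesis, differed by -0.075 ± 0.12 and -0.039 ± 0.15. Srxn1, which repairs oxidised peroxiredoxins, was at 2.86, 2.94 and 3.09 against 2.91, 2.99 and 3.08, close to equal in each same-numbered pair (0.032 ± 0.092). Txnrd1, thioredoxin reductase, was at -0.085 ± 0.15. Slc7a11, the cystine importer, was at -1.04, -1.08 and -0.69 in wild type and at -1.19, -0.74 and -1.69 in knockout (-0.27 ± 0.22), with knockout 2 inside the wild-type range and knockout 3 well below it. The signs of Hmox1, Gclm, Srxn1 and Txnrd1 turned in some alternatives, which the closing section gives.

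**Figure D3:**
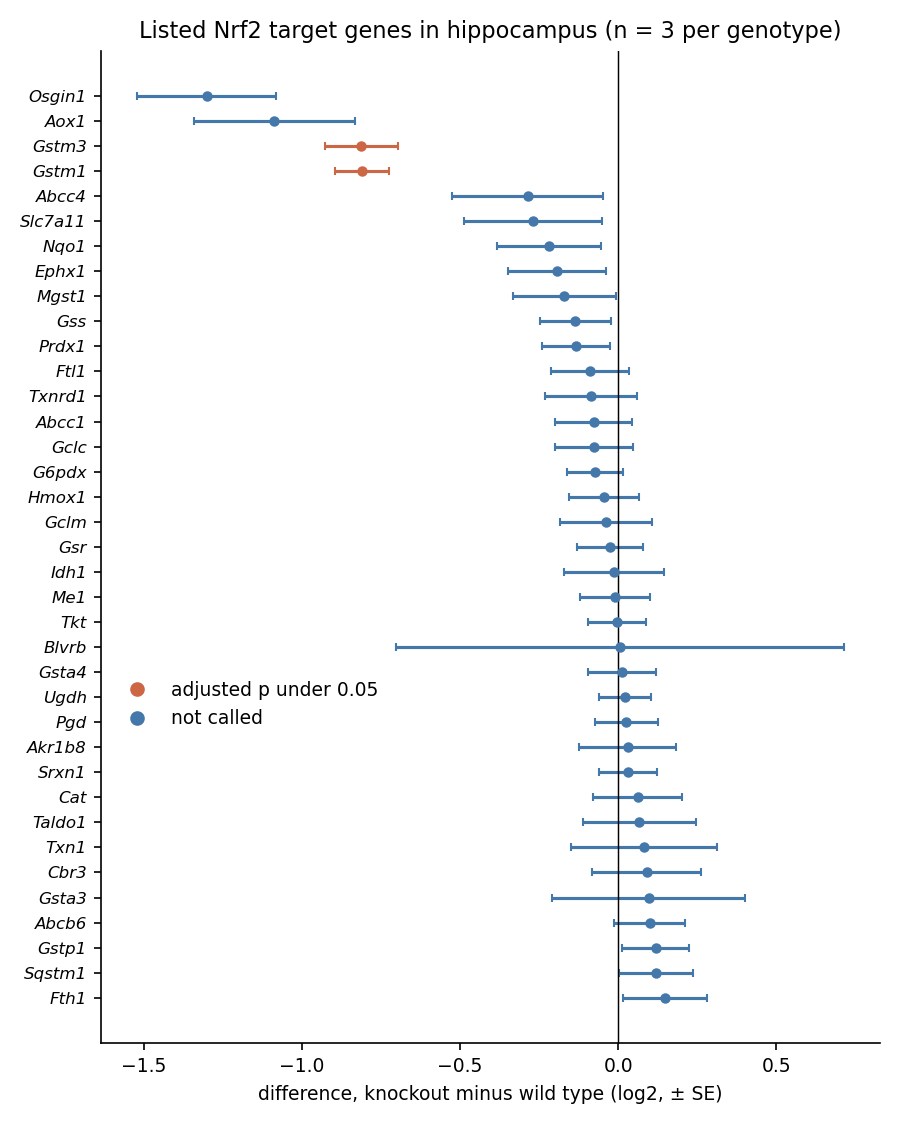
Difference between knockout and wild-type hippocampus (log2, horizontal axis) with its standard error for each of the 37 measured Nrf2 target genes, 3 arrays per genotype. Osgin1, Aox1, Gstm3 and Gstm1 stand apart on the left, from -1.30 to -0.81, and the other genes lie between -0.29 and 0.15.

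Antioxidant response elements share the letters TGACNNNGC, in which N is any base. These letters, on either strand and counted also where hits overlap, were found in 12.392% of the 32851 RefSeq promoter windows of GRCm38.p6, each running from 250 bases before to 50 bases after a start. Of 33 listed target genes with a window, 11 held them, against 13.991% of all genes with a window. None of the 11 with the letters was called, and their differences ranged from -0.29 to 0.097. Of the 21 measured targets without them, 2 were called, Gstm1 and Gstm3. The windows of both called genes are shown because they fell together and lie near each other on chromosome 3, and those of Gclm and Txnrd1 because they hold the letters, in capitals, and did not pass the test. The capitals are the reverse complement of TGACNNNGC in both. A match is a description of the sequence, and its absence says only that these letters are not in the window.
Gstm1, chr3:108017769-108018068, minus strand: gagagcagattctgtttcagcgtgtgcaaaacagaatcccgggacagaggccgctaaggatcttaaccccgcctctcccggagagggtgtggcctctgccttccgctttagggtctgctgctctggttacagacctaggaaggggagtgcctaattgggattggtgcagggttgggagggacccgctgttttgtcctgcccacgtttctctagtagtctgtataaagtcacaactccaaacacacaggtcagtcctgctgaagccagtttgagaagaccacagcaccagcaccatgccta
Gstm3, chr3:107969125-107969424, minus strand: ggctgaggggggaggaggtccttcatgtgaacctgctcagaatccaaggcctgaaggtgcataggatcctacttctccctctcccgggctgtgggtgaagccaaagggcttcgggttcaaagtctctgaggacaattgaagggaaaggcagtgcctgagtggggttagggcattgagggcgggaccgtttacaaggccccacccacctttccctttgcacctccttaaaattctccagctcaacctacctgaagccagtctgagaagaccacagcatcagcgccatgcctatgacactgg
Gclm, chr3:122245307-122245606, plus strand: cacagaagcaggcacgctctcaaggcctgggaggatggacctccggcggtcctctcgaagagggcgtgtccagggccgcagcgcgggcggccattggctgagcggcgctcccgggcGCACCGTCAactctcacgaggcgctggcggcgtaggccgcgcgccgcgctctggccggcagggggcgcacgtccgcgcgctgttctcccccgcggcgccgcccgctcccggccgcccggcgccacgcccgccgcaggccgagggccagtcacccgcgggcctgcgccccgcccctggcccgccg
Txnrd1, chr10:82858956-82859255, plus strand: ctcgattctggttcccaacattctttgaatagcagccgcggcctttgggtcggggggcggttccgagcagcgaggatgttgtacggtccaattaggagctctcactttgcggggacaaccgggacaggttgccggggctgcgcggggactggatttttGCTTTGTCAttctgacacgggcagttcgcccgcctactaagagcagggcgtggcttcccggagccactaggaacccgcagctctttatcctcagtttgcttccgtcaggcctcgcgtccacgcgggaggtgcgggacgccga
In Gclm the letters begin at position -134 from the start and in Txnrd1 at position -92. Gstm1 has a second window and Txnrd1 2 others, none of which held the letters. The windows of Osgin1, Aox1, Nqo1 and Slc7a11 held none, and that of Nfe2l2 held 1 hit.

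Other arms of the defence against oxidants gave no call. Of 32 antioxidant enzymes and related genes, none was called and 21 were above 0 (median 0.032). Txnip, which binds and blocks thioredoxin, was at -0.53, 0.021 and -0.44 in wild type and at -0.71, -0.66 and -0.59 in knockout. All knockout arrays were lower, by -0.34 ± 0.15, without passing the test. The second probe of Txnip was at -0.10 ± 0.28. G6pdx, which feeds NADPH to glutathione reduction, differed by -0.074 ± 0.088, and none of the 16 genes of NADPH supply had groups that did not overlap. The 31 proteasome subunits were within -0.055 to 0.16 of wild type. Of 26 genes for iron and haem, none was called. Slc11a1, a metal transporter of phagocytes, was the member with the largest difference, at -2.12, -2.24 and -2.38 in wild type and -2.84, -2.87 and -3.12 in knockout. The difference of -0.70 ± 0.16 was large against the spread of either group, with an adjusted p of 1 and an unadjusted p of 0.000707 in limma's test. With normexp it was -0.44.

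Subunits of the respiratory chain and the ATP synthase, which make ATP in mitochondria, lay slightly higher in knockout. Of 43 measured, 41 were above 0, against 56.9% of all genes, and 10 had knockout values all above the wild-type values, against 5.23%. None was called, and the median difference was 0.10. Ndufa2, of complex I, was at 4.74, 4.52 and 4.72 in wild type and at 4.81, 4.94 and 4.94 in knockout (0.23 ± 0.17). Cox8a, of complex IV, was at 6.86, 6.83 and 6.83 against 6.93, 6.99 and 6.97 (0.12 ± 0.10). Their knockout arrays were all higher, without passing the test. With quantile normalization the list's median was 0.028, and without knockout 3 it was 0.038, so the height of the shift rested on the scaling and on that array.

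Rbm45 encodes an RNA-binding protein first described in developing neurons. Its level was -4.54, -4.83 and -4.42 in wild type and -1.15, -1.40 and -0.96 in knockout. The groups stood far apart, with a difference of 3.43 ± 0.21 (10.7-fold, adjusted p = 3.52e-06). It was called under each alternative except limma's fit of the 4 arrays of slide 3 alone, which called no gene, with 332 at an unadjusted p under 0.05. With the same 4 hippocampal arrays and the spread taken from all regions it was called. The difference was 2.02 with normexp. Its differences were 3.46 in cortex and 3.61 in brainstem.

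In the RefSeq order of genes Rbm45 is the 5th tested gene from Nfe2l2 on chromosome 2, so the 15 tested genes on either side were read as well. Of these 30, Rbm45 was the called gene, against 0.0176% of all genes. There were 17 higher and 13 lower, and the median was 0.026, or 0.020 without Rbm45. In limma's test 6 had an unadjusted p under 0.05, against 1.35% of all genes. These were Rbm45, Hoxd1, Ttn, Agps, Hoxd3 and Lnpk. Knockout values lay above all wild-type values in 3 and below them in 3, against 5.23% and 2.67%. Lnpk differed by 0.34 ± 0.15 with overlapping groups. Hoxd1 differed by -1.22 ± 0.23 and Hoxd3 by 0.39 ± 0.17, but both were above background on no hippocampal array. Lnpk, Hoxd1 and Hoxd3 were not called. Agps, the next gene, which makes ether lipids, was at 1.49, 1.64 and 1.56 in wild type and at 1.78, 1.80 and 1.88 in knockout, higher on every array (0.26 ± 0.097) but not called. The 4 genes between Nfe2l2 and Rbm45 included no call. Ttn, the giant muscle protein gene 10 places away, was above background on all 3 wild-type arrays and on 1 knockout array, so no fold is given. Its level was -3.97, -4.82 and -4.57 in wild type and -6.19, -5.99 and -6.80 in knockout, and it was not called (adjusted p = 1, difference -0.41 with normexp).

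The fields of the hippocampus were compared through their markers. The 15 measured markers of dentate gyrus granule cells were lower in 13 cases, against 43.1% of all genes, with a median of -0.19 and no call. In bulk tissue, fewer cells of a type and less RNA per cell cannot be told apart. Prox1, the factor that sets granule cell identity, was at -2.15, -2.48 and -2.54 in wild type and at -2.55, -3.02 and -2.85 in knockout. Every knockout array was lower, knockout 1 closest to the wild-type values, and the difference of -0.42 ± 0.28 did not pass the test. Prox1 also differed by -0.62 in cortex and by -0.18 in brainstem, so its fall was not particular to the hippocampus. Npnt, an extracellular matrix protein, was at -0.57 ± 0.22 with overlapping groups, and at -0.17 with normexp. The median of the list was -0.23 and -0.21 on the 2 slides, -0.099 without wild type 1 and -0.046 without knockout 2. The list's mean level was 0.40, 0.094 and 0.087 in wild type and 0.19, -0.22 and -0.036 in knockout. The groups overlapped, while knockout was lower in each same-numbered pair.

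Markers of the pyramidal fields showed no common direction. Of 12 CA1 markers, 8 were below 0 (median -0.058), and of 10 CA2 markers 5. In CA2, Necab2, a calcium-binding protein, was at 3.75, 3.91 and 3.91 in wild type and at 3.97, 4.30 and 4.31 in knockout, higher on every array (0.34 ± 0.096) and not called. Among 10 CA3 markers, 7 were above 0. Nnat, neuronatin, was at 2.39, 2.88 and 2.59 against 3.15, 3.44 and 3.12 (0.62 ± 0.20), with no overlap and no call.

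Genes of the neurogenic niche lay above 0 in 15 of 20 cases (median 0.070). Sox2, a factor of neural stem cells that astrocytes also express, was at 0.32, 0.36 and 0.35 in wild type and at 0.58, 0.55 and 0.58 in knockout. Within each genotype its values were nearly alike, and the difference was 0.22 ± 0.086, short of the threshold. The mean level of the astrocyte list, given below, was also higher on every knockout array, and its part in this difference was not tested. Calb2, calretinin, found in immature granule cells and in interneurons, was at -0.66, -0.30 and -0.55 against -0.19, -0.030 and 0.15 (0.48 ± 0.25). Fabp7, of radial glia and astrocytes, differed by 0.37 ± 0.20 with overlapping groups.

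Immediate early genes, which neurons switch on within minutes of firing, lay lower in knockout. Of 32 measured, 26 were below 0, against 43.1% of all genes, and the median was -0.25, with no call. Arc, which acts at synapses, was at 4.03, 4.34 and 4.51 in wild type and at 3.19, 3.72 and 3.81 in knockout. All its knockout arrays were lower (-0.72 ± 0.33) without passing the test. Ier5 was at -0.24 ± 0.10 with no overlap. Inhba, an activin subunit, was at -0.41 ± 0.15 with overlapping groups. Nr4a1, an orphan nuclear receptor, was at 4.67, 5.16 and 4.98 in wild type and at 4.23, 4.67 and 4.56 in knockout (-0.45 ± 0.23). In both genotypes array 1 was the lowest for Arc and Nr4a1. The mean level of the list showed the same, at 0.48, 0.85 and 0.90 in wild type and 0.19, 0.64 and 0.54 in knockout. Wild type 1 and knockout 1 shared slide 2 and the other hippocampal arrays slide 3, so number and slide cannot be told apart. Without wild type 3 or knockout 1 the median was -0.15.

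Potassium channel genes held no call among 27. In 4 of them the knockout values lay under all wild-type values, where 2.67% of all genes did so. Kcnj2, an inward rectifier, was above background on 3 wild-type arrays and no knockout array. Its measured fall was 1.6-fold and was not called (adjusted p = 1). With normexp its difference was -0.0021. The 1.6-fold sets the wild-type mean against the knockout arrays' own mean, which lay above the lowest signal called above background. It is therefore an estimate and not a lower bound. Kcnk1, a leak channel, was at 1.77, 1.68 and 1.76 against 1.55, 1.42 and 1.59 (-0.22 ± 0.12). Kcns2 was at -0.31 ± 0.16 and Kcnh7 at -0.27 ± 0.17, the latter turning to 0.030 with normexp.

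**Figure D4:**
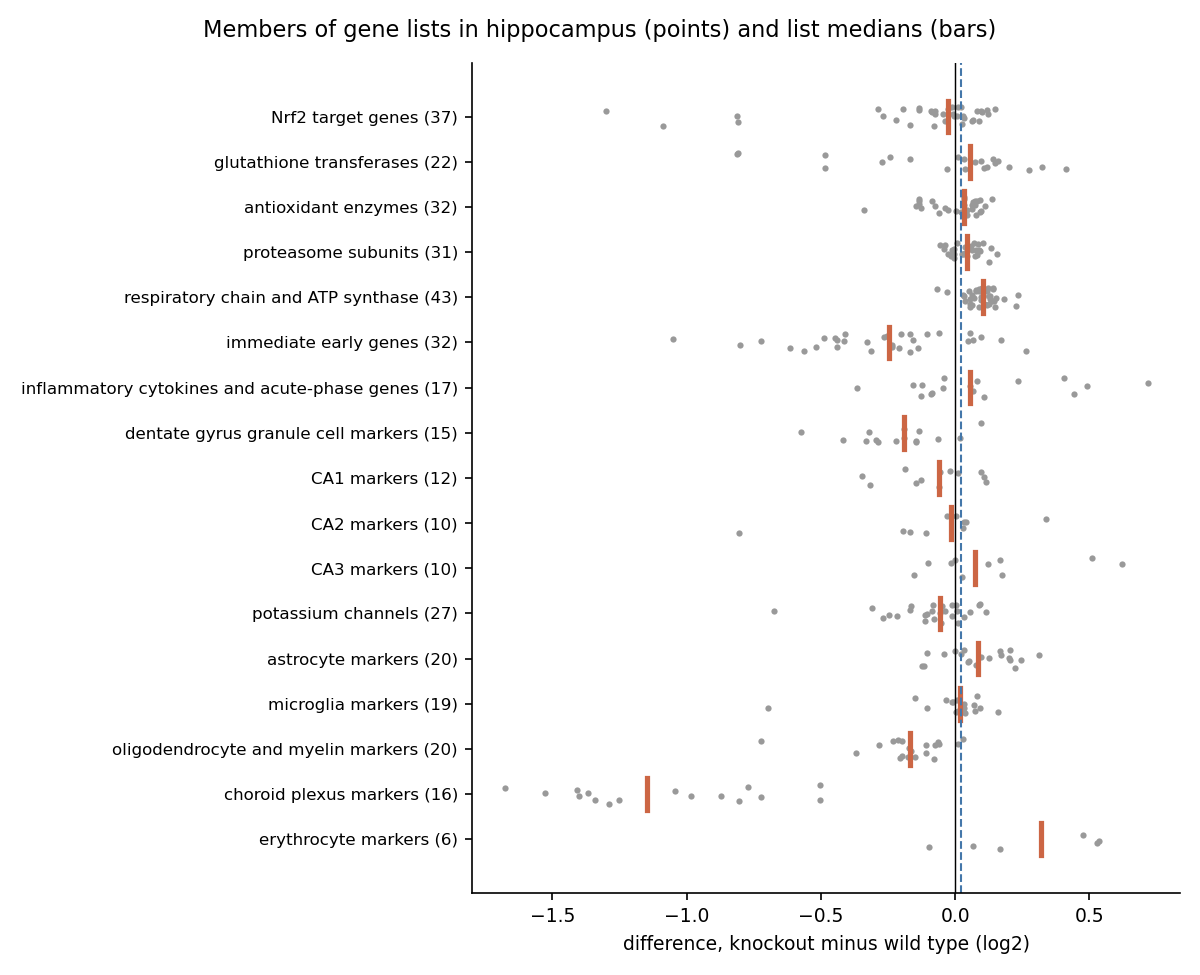
Difference between knockout and wild-type hippocampus (log2, horizontal axis) of each measured member (grey points) of 17 gene lists, with the list's median (bar) and its number of measured members; the dashed line is the median of all tested genes, 0.022. Choroid plexus markers are all below 0 (median -1.15), immediate early genes and granule cell markers lie mostly below 0, and respiratory chain and erythrocyte genes mostly above it.

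Astrocyte markers were higher in 16 of 20 cases (median 0.087), and 7 had knockout values all above the wild-type values, against 5.23% of all genes. None was called. Slc1a3, a glutamate transporter, was at 4.42, 4.52 and 4.47 in wild type and at 4.61, 4.81 and 4.94 in knockout (0.31 ± 0.15). Aldoc, an aldolase, was at 6.10, 5.98 and 6.29 against 6.31, 6.34 and 6.45 (0.24 ± 0.096). Aqp4, the water channel of astrocyte endfeet, differed by 0.21 ± 0.11, but by 0.032 and 0.059 at its other probes. The mean level of the list was 2.95, 2.96 and 2.96 in wild type and 3.03, 3.03 and 3.07 in knockout. The lists of microglia markers (13 of 19 above 0, median 0.017) and of pan-neuronal genes (11 of 20 above 0, median 0.014) lay close to all genes.

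Of 17 measured cytokine and acute-phase genes, none was called, 9 were above 0 and 8 below. In 4 of the 17 the knockout values lay above all wild-type values, where 5.23% of all genes did. They were the members with the smallest p, all chemokines at low signal. These were Ccl3, Ccl12, Ccl2 and Ccl4. Ccl3 was at -4.73, -4.92 and -4.97 in wild type and at -4.24, -4.10 and -4.12 in knockout (0.72 ± 0.31). Ccl12 was at -3.04, -3.37 and -3.48 against -2.92, -2.70 and -2.94 (0.44 ± 0.20). Ccl2 differed by 0.49 ± 0.24 and Ccl4 by 0.41 ± 0.31. With normexp the differences were 0.33 for Ccl3, 0.18 for Ccl2 and 0.22 for Ccl4. The list as a whole had a median of 0.056, and of -0.015 without wild type 3.

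**Figure D5:**
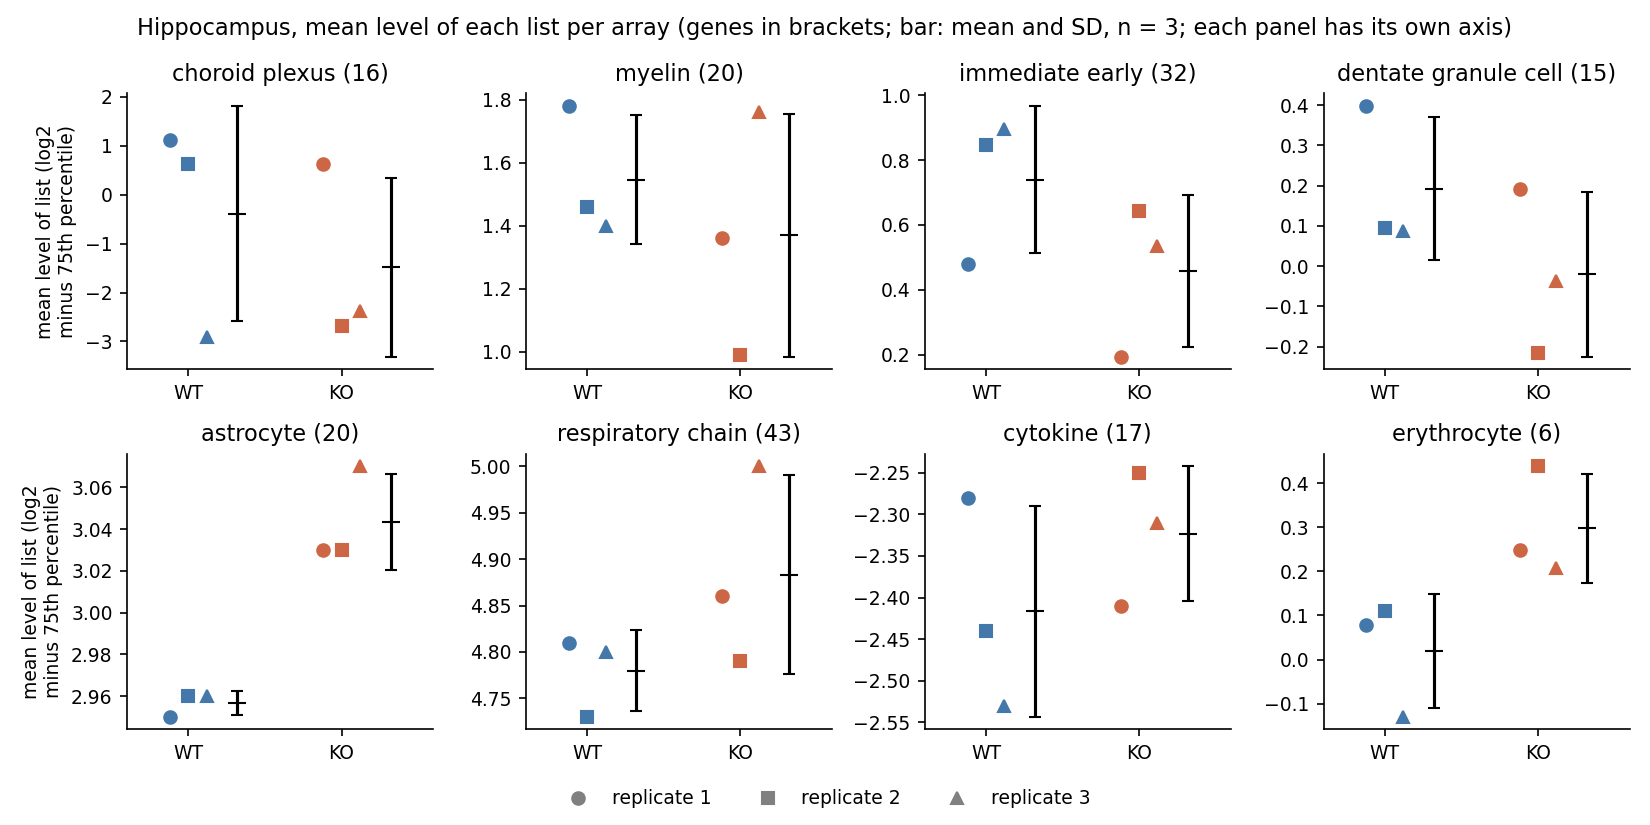
Mean level of 8 gene lists on each hippocampal array (log2 signal minus the 75th percentile, vertical axis) in wild type (WT) and knockout (KO), with the mean and SD of 3 arrays; marker shapes give the replicate number and each panel has its own axis. Choroid plexus genes fall into a high set (wild type 1 and 2, knockout 1) and a low set, while the astrocyte and erythrocyte lists are the panels in which the genotypes do not overlap.

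Levels of choroid plexus, myelin and blood genes varied between arrays. All 16 choroid plexus markers had a difference below 0 (median -1.15), none with groups that did not overlap, since the high and low arrays named above fall in both genotypes. The median was -0.33 without wild type 1 and -2.33 without wild type 3. Myelin genes were below 0 in 18 of 20 cases (median -0.17), with a mean level of 1.78, 1.46 and 1.40 in wild type and 1.36, 0.99 and 1.76 in knockout. Without knockout 2, the lowest array, the median was 0.013. Of 6 measured erythrocyte genes, which report blood left in the tissue, 5 were above 0 (median 0.32). Alas2, which starts haem synthesis in red cells, was at -1.30, -1.32 and -1.91 against -0.82, -0.83 and -1.28 (0.53 ± 0.25), with no call. The 15 markers of meninges and fibroblasts went both ways, 8 above 0 and 7 below, from -0.50 to 0.58 with a median of 0.046 (-0.0031 within slide 3), and their mean level was lowest in knockout 3 (0.035). Dcn, decorin, the member with the smallest p, was at 2.72, 3.03 and 2.80 in wild type and 3.55, 3.59 and 3.15 in knockout (0.58 ± 0.21), higher on every array and not called. The part of these genes' sources in the other differences was not tested.

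The largest differences were read among the 14831 tested genes with a symbol. With the 4 calls included, 28 of them had an unadjusted p under 0.01 in limma's test, signal above background on all 6 arrays and groups that did not overlap. Of the 28, 17 were higher and 11 lower. Among those higher, Ano2, a calcium-activated chloride channel, was at -3.22, -2.81 and -2.84 in wild type and at -2.56, -1.47 and -1.92 in knockout (0.98 ± 0.28). Etnppl, an astrocyte enzyme that breaks down phosphoethanolamine, was at -0.088, 0.34 and 0.58 against 1.18, 0.67 and 1.57 (0.86 ± 0.22). The receptors Avpr1a, for vasopressin, and Esr1, for oestrogen, differed by 0.70 ± 0.23 and 0.68 ± 0.22. Hpx, which binds free haem, was at 0.53 ± 0.16. With normexp Avpr1a, Esr1 and Hpx were at 0.20, 0.34 and 0.26.

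On the lower side, Itga6, the laminin receptor subunit alpha-6, was at -0.55, -0.58 and -0.67 in wild type and at -1.09, -0.88 and -1.29 in knockout (-0.48 ± 0.14). Arg2, mitochondrial arginase, was at -3.33, -3.51 and -3.41 against -3.73, -4.01 and -3.83 (-0.44 ± 0.13). Txlnb and Rarres1 differed by -0.49 ± 0.14 and -0.44 ± 0.14. With normexp Arg2 was at -0.25 and Txlnb at -0.20. None of the genes of this group described here, other than the calls, had an adjusted p under 0.05.

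In cortex and in brainstem 7 genes each passed the same threshold (0.0309% of those tested). The knockout effect in hippocampus was compared with that in the other regions by an interaction contrast in the same fit. No gene passed an adjusted p of 0.05, either against cortex (195 at an unadjusted p under 0.05 in limma's test, smallest adjusted p 0.443) or against brainstem (227, smallest adjusted p 1). For Gstm1 the effect was less negative than in cortex by 0.22, for Gstm3 by 0.22 and for Osgin1 by 0.72, each with an adjusted p of 1. Nfe2l2 fell less than in cortex (-8.81) by 3.20, also with an adjusted p of 1. That contrast sets low knockout signals of the removed gene against each other, as wild-type levels were 0.94 in hippocampus and 0.85 in cortex. Magel2, a gene of the Prader-Willi region, was at -2.77, -2.21 and -2.26 in wild type and at -1.95, -1.68 and -1.76 in knockout hippocampus (0.62 ± 0.18). Its difference was -0.71 in cortex and 0.13 in brainstem. Neither the contrast of 1.33 with cortex nor that of 0.49 with brainstem passed the adjustment.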

How the data were processed

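The 18 arrays hold total RNA of 6 groups, 3 arrays each, grouped by their titles. The deposited files are Agilent Feature Extraction 10.7.3.1 output, per the submitters' processing notes. Per the file headers they give intensities: the processed signal is background-subtracted, and the median signal and local background stand beside it. Control and outlier-flagged spots were left out, log2 was taken, each array's 75th percentile was subtracted, and spots of a probe were averaged.

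Probes were named through RefSeq accessions (26690 of 41174 matched 1 symbol, 14484 none). Probes above background on all arrays of any group were kept (30070), and the brightest probe of a gene was tested. limma 3.58.1 in R 4.3.3 fitted 1 mean per group over 18 arrays (12 residual df), two-sided, with Benjamini-Hochberg adjustment over 22675 genes. On simulated arrays with 200 changed genes, 61 of 100 changes of 1 on the log2 scale and 92 of 100 of 2 were called, with 13 false calls among 166. The simulated noise was independent between arrays. With 166 calls the adjustment was also milder than with the 4 calls of the real data. These shares therefore do not carry over to the real comparison. The number of arrays limits the precision, and p-values measure the spread between these arrays. The authors' deposited series table of processed intensities was not used, because all 6 of its hippocampal columns hold another array's values (largest deviation 0.5%).

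Same-numbered wild-type and knockout hippocampi deviated together (correlations 0.39, 0.286 and 0.308 over 21207 genes), over 0.1 in each pair. The main fit has no block, and the value with the number as a block is given where it changes a call. Slides were known from the headers: slide 2 held wild type 1 and knockout 1, slide 3 the other 4 hippocampal arrays.

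Members, lists and tests were chosen with earlier results of these data known. Named were the called genes, those called under any alternative, the members of 3 Nrf2 lists, the 12 largest rises and falls, up to 4 members per list by p, 15 neighbours on each side and the defining markers. Of these, only genes that carry a comparison are given with values, and 1 result is not reported here. Alternatives were quantile and median scaling, normexp (on the median signal, as the files lack the mean signal, offset 50), filters, samples, blocks, slides, probes and moderation. Genes on the array but below the filter were not tested.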

Additional observations from a re-analysis of the deposited data

How the results depend on the processing

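Of 87 named genes, 80 kept the sign of their difference in all alternatives that could be fitted, and 11 of 1912 pairs of gene and alternative had the other sign. Many of the 87 were chosen for a small p or for groups that do not overlap, which favours a stable sign. Some genes given with values, such as Gsta1, Ltc4s, Lnpk, Hoxd1 and AK029300, are not among the 87. With 4 calls in hippocampus, 1 gene was called from the 6 hippocampal arrays alone, 2 with the replicate block within region, 1 with that block in the 6 arrays and 0 in the 4 arrays of slide 3. Leaving out 1 array gave 3 to 6 calls, among them Bace2, Vgll3 and the unnamed AK029300 without wild type 2 and the unnamed XM_149458 without knockout 1. Normexp added the unnamed AK017540, and other settings gave 3 to 5. The contrast with cortex had 1 call with quantile normalization (AK012417), 2 on slide 3 with pooled spread (an alternative added after seeing the data, as were the replicate block over regions and the mouse number within genotype, taken as 1 animal over regions, as a random block) and 0 to 1 without 1 array (AK012417 without wild type 1, Vgll3 without wild type 2, XM_149458 without knockout 1). The contrast with brainstem had 0 to 1 without 1 array (Vgll3 without wild type 2). Apart from the calls named beside their genes, the replicate block changed none. Without 1 array, Hmox1 ranged from -0.10 to 0.060 (0.027 without wild type 1), Gclm from -0.1045 to 0.0074, Txnrd1 from -0.14 to 0.0013, Srxn1 from -0.019 to 0.094 (-0.011 without knockout 3) and Keap1 from -0.0022 to 0.0997. Srxn1 was at -0.018 with quantile normalization and -0.048 over all its probes. Gstp1 was at -0.0042 on slide 2 and Kcnh7 at 0.030 with normexp. Of 880 list medians, 10 moved beyond the SD between replicates. With normexp 67.4% of genes were above 0, against 56.9%. Low signal limits the genes given with their normexp values beside them.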

Other observations

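Several genes that are known to be expressed from the copy of a single parent stood among the higher ones in knockout hippocampus. A list of 34 such imprinted genes was written after these values had been seen, so it is a description and supports nothing. Of the 30 measured, 22 were above 0 (median 0.099, against 0.022 for all genes), none was called, and 4 had knockout values above all wild-type values, where 5.23% of all genes did. Dio3, which inactivates thyroid hormone, was at -0.59, 0.34 and 0.41 in wild type and at 0.98, 1.40 and 1.11 in knockout (1.12 ± 0.50). Dlk1, a membrane protein encoded in the same cluster, was at -4.15, -3.97 and -4.30 against -3.17, -3.10 and -3.88 (0.75 ± 0.26, or 0.41 with normexp). Nnat and Magel2, given above, were the others. Plagl1, a zinc finger factor, was at 0.51 ± 0.18 with overlapping groups. In cortex the same differences were -0.14 for Dio3, -0.86 for Dlk1 and -0.15 for Plagl1, and the median of the list was -0.066. In brainstem the median of the list was 0.042. None of these genes passed the adjusted contrast between regions.

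Wild type 2 stood apart in 3 genes. Vgll3, a transcription cofactor, was at -3.95, -2.13 and -3.92 in wild type and between -2.19 and -2.11 in knockout. Bace2, a protease related to the beta-secretase, was at -4.26, -3.13 and -3.91 in wild type and between -3.13 and -2.81 in knockout. The unnamed AK029300 was at -3.63, -1.42 and -3.59 in wild type and between -1.64 and -1.27 in knockout. With normexp the differences of Vgll3 and Bace2 were 0.77 and 0.52, against 1.18 and 0.83. In all 3 genes wild type 2 lay within or beside the knockout range, and each was called when it was left out. The genes were chosen by that call, so neither trait is a separate result, and none was called in the main fit.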
